A study of Mus musculus with 12 samples.

Results

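Afp, Gpc3, H19, Igf2, Dlk1, Lin28b, Igf2bp1, Igf2bp2 and Igf2bp3 are 9 genes that are active in the fetal liver, or expressed from 1 parental copy by imprinting, and most of which fall silent or nearly so in the adult organ. They were taken by symbol from the gene IDs of the deposited count tables, which hold 21807 IDs each, and 8 of the 9 have a row there. H19, a long noncoding RNA, was not analysed here. Their levels were followed in 12 mouse liver libraries in 4 groups of 3, namely NICD1/Akt tumor tissue and control liver at 2 weeks and at 3 weeks. All mice were C57BL/6J. NICD1/Akt mice, aged 5 weeks at injection, received by hydrodynamic tail vein injection (HTVI) 10 µg of a plasmid for NICD1, the active intracellular part of Notch1, and 10 µg of one for myristoylated AKT, together with the Sleeping Beauty transposase, which inserts both transgenes into the genome of the transfected hepatocytes. Controls carry the label WT and had no injection, so the effect of the transgenes cannot be told apart from that of the injection, and tumor tissue was set against whole healthy liver. In such bulk tissue, fewer cells of a type and less RNA per cell cannot be told apart either.

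Oncofetal proteins are made by the embryo, are switched off around birth and return in some tumors. AFP is the main serum protein of the fetus and a relative of albumin, and GPC3 is a heparan sulfate proteoglycan of the cell surface that serves as a tissue marker of hepatocellular carcinoma. IGF2 is a fetal growth factor that signals through the receptors IGF1R and INSR and is cleared by IGF2R. Its gene shares an imprinted domain with H19, the former being expressed from the paternal and the latter from the maternal copy. DLK1 is a membrane protein of the Notch ligand family and a marker of hepatoblasts, the bipotent progenitors of the fetal liver; its gene is also imprinted and paternally expressed. LIN28B blocks the maturation of let-7 microRNAs, which repress many fetal genes. IGF2BP1, IGF2BP2 and IGF2BP3 are RNA-binding proteins that stabilize target mRNAs, IGF2 mRNA among them, and IGF2BP1 and IGF2BP3 are known as the fetal members of the family.

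The let-7 axis can be read in the sequences themselves, since a microRNA pairs with its targets mainly through its seed, bases 2 to 8. RefSeq (GRCm38.p6) lists 10 mature let-7 names of the mouse, of which 9 share 1 seed. Shown are 3 of these and let-7j, the member with another seed, with the seed in capitals.
let-7a-5p: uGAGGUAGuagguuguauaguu
let-7b-5p: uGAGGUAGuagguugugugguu
let-7i-5p: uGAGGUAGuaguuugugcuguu
let-7j: uGAGGUAUuaguuugugcuguuau

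The site that pairs with the shared seed, followed by an A, reads CTACCTCA in the target. It was searched on the transcript strand in the longest annotated 3′UTR of each protein-coding gene (GENCODE M21, GRCm38), and 643 of 21027 genes held it (3.06%), or 7.07% of the 5375 genes whose 3′UTR has at least 2000 nt. Among the oncofetal genes, Lin28b, Igf2bp1, Igf2bp2 and Igf2bp3 held it, and Afp, Gpc3, Igf2 and Dlk1 did not. The Igf2bp1 3′UTR, of 6337 nt, had 3 such sites, a number reached by 7 genes in all. The sites are given 5′ to 3′ with the 8 matching bases in capitals and with the coordinates of those bases.
Lin28b, chr10:45381022-45381029 (-): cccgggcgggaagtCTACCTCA
Igf2bp1, chr11:95961778-95961785 (-): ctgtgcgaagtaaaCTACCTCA
Igf2bp1, chr11:95959357-95959364 (-): agcagtgctattaaCTACCTCA
Igf2bp1, chr11:95958763-95958770 (-): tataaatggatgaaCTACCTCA
Igf2bp2, chr16:22059473-22059480 (-): cacacaaataaaagCTACCTCA
Igf2bp3, chr6:49086787-49086794 (-): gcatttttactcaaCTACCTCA
These matches describe the letters of the 3′UTRs, and let-7 itself was not measured in these poly(A) libraries.

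The promoters differ in base composition. RefSeq (GRCm38.p6) gives 10 windows of 300 bases, from 250 bases before to 50 after the start, for 7 of the oncofetal genes. CpG dinucleotides, the sites of DNA methylation, numbered 47 in Igf2bp2, 30 in Gpc3, 25 in Igf2bp3, 9 in Dlk1, 8 in Lin28b and 3 in Afp, and from 2 to 24 in the 4 windows of Igf2, against a median of 7 over 32851 windows. The windows of the 4 genes that were higher at 3 weeks are printed with each CpG in capitals.
Afp, chr5:90490464-90490763 (+): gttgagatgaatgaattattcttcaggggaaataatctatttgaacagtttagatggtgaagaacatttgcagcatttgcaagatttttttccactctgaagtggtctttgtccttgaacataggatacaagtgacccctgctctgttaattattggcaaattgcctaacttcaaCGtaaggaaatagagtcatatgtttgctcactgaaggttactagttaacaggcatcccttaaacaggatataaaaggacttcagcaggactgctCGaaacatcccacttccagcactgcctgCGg
Gpc3, chrX:52613925-52614224 (-): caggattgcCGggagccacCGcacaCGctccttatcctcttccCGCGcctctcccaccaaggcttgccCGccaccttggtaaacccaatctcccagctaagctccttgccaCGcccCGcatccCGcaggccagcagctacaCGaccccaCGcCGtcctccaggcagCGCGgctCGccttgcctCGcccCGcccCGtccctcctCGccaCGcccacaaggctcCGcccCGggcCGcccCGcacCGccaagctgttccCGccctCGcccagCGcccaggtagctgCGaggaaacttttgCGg
Dlk1, chr12:109452573-109452872 (+): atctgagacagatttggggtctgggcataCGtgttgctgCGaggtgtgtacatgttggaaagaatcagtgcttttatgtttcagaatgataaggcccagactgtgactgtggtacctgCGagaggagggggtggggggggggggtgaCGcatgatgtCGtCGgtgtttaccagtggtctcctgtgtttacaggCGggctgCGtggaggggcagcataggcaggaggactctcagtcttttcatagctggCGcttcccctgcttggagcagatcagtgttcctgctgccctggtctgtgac
Igf2bp3, chr6:49214905-49215204 (-): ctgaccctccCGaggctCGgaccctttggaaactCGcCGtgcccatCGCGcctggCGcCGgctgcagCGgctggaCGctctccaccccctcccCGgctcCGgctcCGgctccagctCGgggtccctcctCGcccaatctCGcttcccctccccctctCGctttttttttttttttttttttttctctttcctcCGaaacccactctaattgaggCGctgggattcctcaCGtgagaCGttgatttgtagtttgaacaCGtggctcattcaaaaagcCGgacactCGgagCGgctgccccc
The Notch effector RBPJ binds the motif GTGGGAA, which was searched on both strands because NICD1 acts through RBPJ. It was found in 6.38% of all windows and, among the oncofetal genes, in 1 window of Igf2 (chr7:142666767-142667066) alone. That absence elsewhere says only that these letters are not in these windows. The motif TATAAA was found in 13.62% of all windows and, here, in Afp alone.

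Total counts were 13136892 to 19594839 per library. All 8 genes with a row were scarce, with summed counts over the 12 libraries from 1 read (Lin28b) to 550 reads (Igf2bp2), so counts are given beside CPM (reads scaled to a common library size with TMM over 12 libraries). Before any comparison, 1 library stood apart from its label. In the library labelled control 32, Notch1 stood at 106 CPM and Akt1 at 381 CPM. The NICD1/Akt libraries of its stage spanned 101 to 203 CPM for Notch1 and 285 to 929 CPM for Akt1, and its fellow controls 30 and 31 had 49.1 and 53.7 CPM of the former and 90.8 and 90.0 CPM of the latter. Its 6 biliary markers summed to 1997 CPM, against 68.4 and 66.3 CPM in the controls 30 and 31. At 3 weeks NICD1/Akt livers had 325 to 413 CPM of Notch1 and controls 42.1 to 45.5 CPM. The methods name male mice, but Ddx3y, which lies on the Y chromosome, had 0 to 0.398 CPM in all 2-week libraries except 32. Library 32 had 57.1 CPM. The 3-week NICD1/Akt livers had 52.2 to 61.4 CPM and the 3-week controls 120 to 126 CPM. Sex and stage therefore cannot be told apart, and the library labelled control 32 is kept in its group, with values without it given beside the 2-week results of the oncofetal genes and of the companion genes named at that stage.

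**Figure D1:**
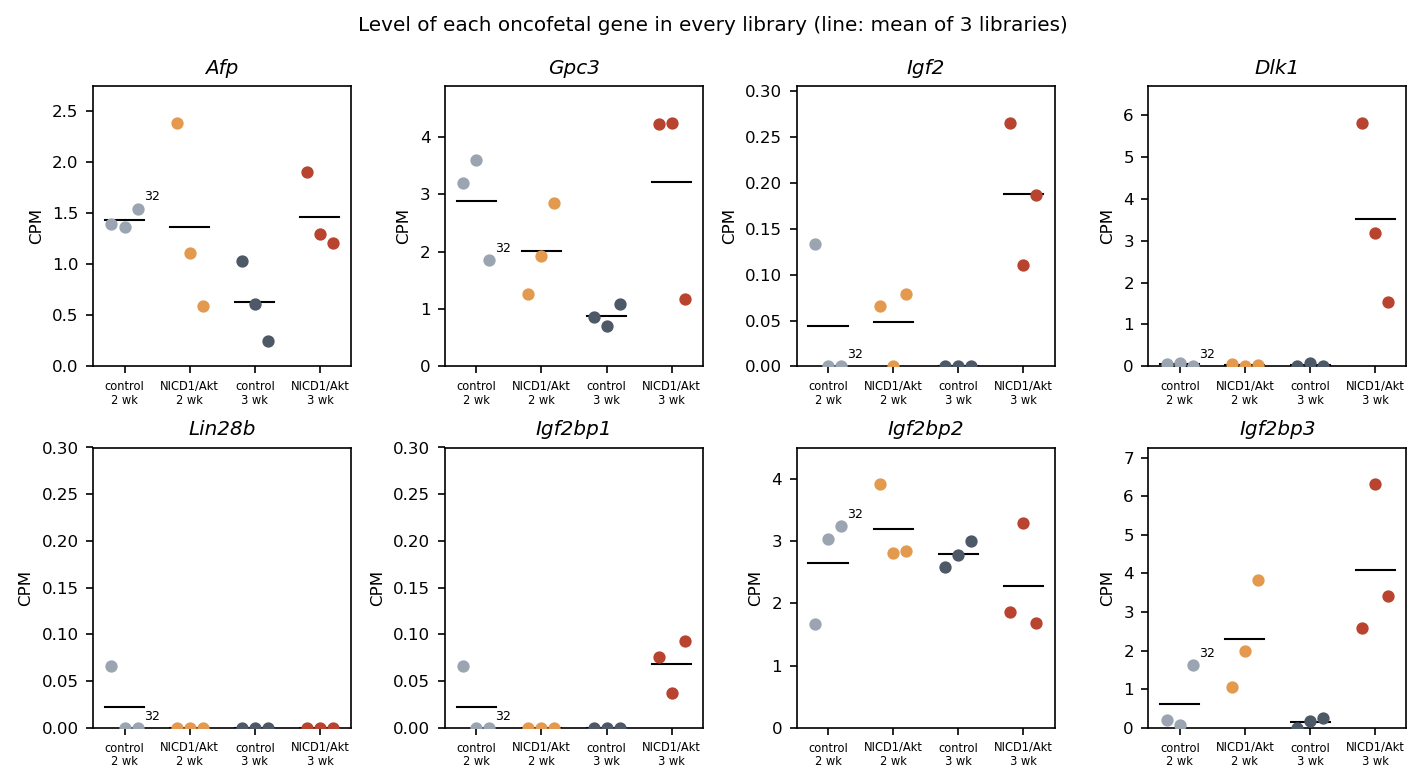
CPM (linear axes from 0, TMM over 12 libraries) of the 8 oncofetal genes with a row in each of the 12 libraries, by group, with the group mean as a line and the library labelled control 32 marked. Dlk1 spans 1.54 to 5.81 CPM in the 3-week NICD1/Akt livers and 0 to 0.0869 CPM in the other 9 libraries, whereas Igf2bp2 overlaps between all groups.

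At 3 weeks, Dlk1, Igf2bp3, Gpc3 and Afp were higher in NICD1/Akt livers than in controls and Igf2bp2 was not called. Thus 4 of the 5 oncofetal genes with enough reads for the edgeR quasi-likelihood test were higher at an adjusted p under 0.05 and 0 lower, where 38.9% of all 13408 genes tested were higher and 33.1% lower. The median log2 fold change of the 5 was 1.99, against 0.06 over all genes tested. The remaining 3 genes with a row, Igf2, Igf2bp1 and Lin28b, were too scarce to be tested, and H19 was not analysed. The filter on low counts asked for 0.648 CPM in 3 libraries, which all 3 NICD1/Akt livers reached for each of the 5. This cutoff is in CPM by library size alone and cannot be read against the TMM-scaled CPM printed elsewhere. Of the controls, 0 of 3 reached it for Dlk1 and Igf2bp3, 1 for Afp, 2 for Gpc3 and 3 for Igf2bp2. The 4 called genes thus passed the filter only because of their levels in NICD1/Akt livers, so their count and median describe the tested genes and support nothing about all 9.

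Dlk1 had the largest change of the 5. It gave 153, 86 and 33 reads in the NICD1/Akt libraries 1, 2 and 3 and 0, 1 and 0 reads in the controls 10, 11 and 12, or 5.81, 3.18 and 1.54 CPM against at most 0.0869 CPM. The groups did not overlap, although the NICD1/Akt libraries themselves spread widely. The ratio of pooled counts was 128, with a 95% counting interval of 22.7 to 5062 that rests on 1 control read. In edgeR the log2 fold change was 6.75 (standard error 1.00, adjusted p = 3.82e-04), 6.15 without NICD1/Akt library 1 and 9.15 without control 11, which holds that read. The call was kept in all 20 alternatives.

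Igf2bp3, the fetal RNA-binding protein gene, gave 68, 171 and 73 reads in NICD1/Akt livers at 3 weeks and 0, 2 and 3 reads in controls. These are 2.58, 6.32 and 3.41 CPM against 0 to 0.250 CPM. All NICD1/Akt libraries were above all controls, and the log2 fold change was 4.90 (standard error 0.67, adjusted p = 2.34e-04). Leaving out 1 library moved it between 4.34 (without control 10) and 5.57 (without control 12), with the call kept. Against all 6 controls, which take in the library labelled control 32, it was 3.37 (adjusted p = 0.0113), and 4.94 against the 5 others (adjusted p = 1.71e-04).

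Gpc3, the X-linked proteoglycan gene, gave 111, 115 and 25 reads in NICD1/Akt livers and 10, 8 and 13 reads in controls at 3 weeks. On the CPM scale, libraries 1 and 2 were at 4.22 and 4.25, library 3 at 1.17 and the controls at 0.695 to 1.08, so library 3 lay just above the highest control. The log2 fold change was 1.99 (standard error 0.54, adjusted p = 0.00937). The call was lost in limma-voom (1.80, adjusted p = 0.0555) and against all 6 controls (0.76, adjusted p = 0.316) or the 5 of them other than library 32 (0.89, adjusted p = 0.262); the controls of 2 weeks ranged from 1.85 to 3.60 CPM.

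Afp gave 50, 35 and 26 reads in NICD1/Akt livers at 3 weeks and 12, 7 and 3 in controls, or 1.90, 1.29 and 1.21 CPM against 1.03, 0.609 and 0.250 CPM. The groups were close but did not overlap, and the log2 fold change was 1.34 (standard error 0.45, adjusted p = 0.0256). This call was lost without NICD1/Akt library 1 (1.102, adjusted p = 0.0875), without control 11 (1.31, adjusted p = 0.0654) or control 12 (0.94, adjusted p = 0.085), in a joint fit of the 12 libraries (adjusted p = 0.0761) and against all 6 controls (0.49, adjusted p = 0.419) or the 5 of them other than library 32 (0.77, adjusted p = 0.197). Per kilobase of exon, Afp in NICD1/Akt livers was at a mean of 0.436 CPM and its relative Alb, the albumin gene, at 8333 CPM.

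Igf2bp2, the paralog that many adult tissues express, had 1.86, 3.29 and 1.68 CPM in the 3-week NICD1/Akt livers, while controls ranged from 2.58 to 3.00 CPM. The groups overlapped (log2 fold change -0.17 ± 0.30 SE, adjusted p = 0.632). With library-size scaling alone this value was 0.55 (adjusted p = 0.155), a scaling that also moved the median of all genes from 0.06 to 0.77 and the share of higher genes among those called from 54.1% to 87.6%. Dlk1, Igf2bp3, Gpc3 and Afp remained higher under that scaling.

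**Figure D2:**
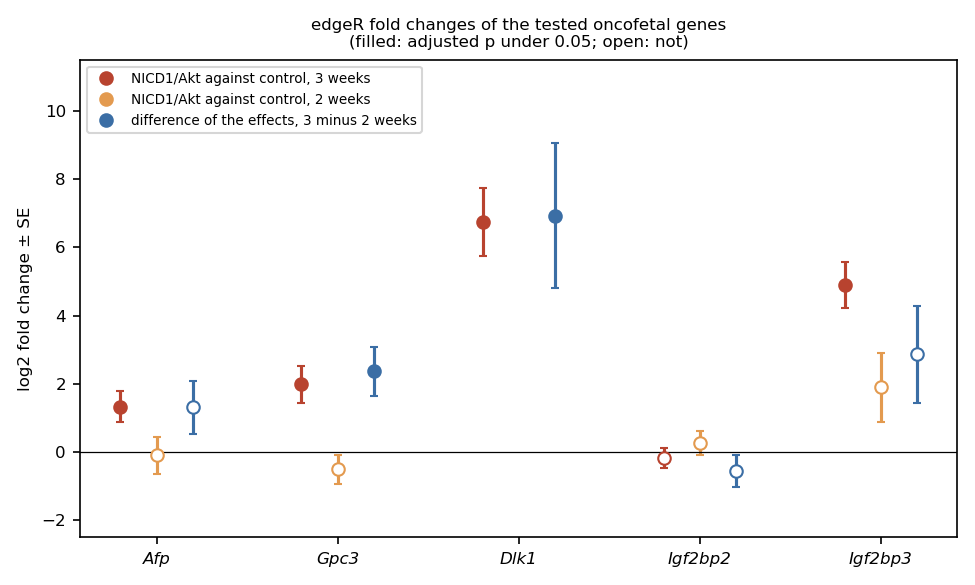
log2 fold changes from edgeR (points) with standard errors (bars) of the 5 tested oncofetal genes, for NICD1/Akt against control at 3 weeks, at 2 weeks and for the difference of both effects, filled where the adjusted p is under 0.05. At 3 weeks 4 of 5 points are filled and at 2 weeks 0 of 4.

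The other 3 genes stayed near the limit of detection. Igf2 gave 7, 3 and 4 reads in NICD1/Akt livers at 3 weeks and 0 in all 3 controls. This is 2.19-fold above a floor of 3 reads over the control group (0.0854 CPM). At 2 weeks it gave 1, 0 and 2 reads in NICD1/Akt livers and 2, 0 and 0 in controls. Igf2bp1 gave 2, 1 and 2 reads in NICD1/Akt livers at 3 weeks, 1 read in control 30 and 0 in the other 8 libraries. Lin28b gave 1 read in all, in control 30, and the floor of 3 reads over 12 libraries corresponds to 0.0146 CPM. Changes of Igf2bp1 and Lin28b were thus not detectable at this depth.

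Set side by side per kilobase of exon, the mean levels in NICD1/Akt livers at 3 weeks ran from 1.19 CPM per kb (Gpc3) over 0.621 (Dlk1), 0.503 (Igf2bp3), 0.436 (Afp) and 0.308 (Igf2bp2) to 0.0328 (Igf2) and 0.0071 (Igf2bp1). Neighbours from Gpc3 to Igf2bp2 overlapped in their spread over libraries. In controls at 3 weeks the order began with Igf2bp2 (0.377), Gpc3 (0.327) and Afp (0.187), followed by Igf2bp3 (0.0173) and Dlk1 (0.0051).

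At 2 weeks, 0 of the 4 tested oncofetal genes were called (0% of all 13041 genes tested were), and 0 of the 4 had an unadjusted p under 0.05, as 8.59% of all genes did. DESeq2, limma-voom and the likelihood ratio test of edgeR called 0 of them as well. Igf2bp3 came closest. It gave 16, 27 and 97 reads in NICD1/Akt libraries 33, 34 and 35 (1.06, 2.00 and 3.82 CPM) and 3, 1 and 21 reads in the libraries labelled control 30, 31 and 32 (0.199, 0.0720 and 1.62 CPM). Controls 30 and 31 lay below all NICD1/Akt livers, and the library labelled control 32 lay among them. The log2 fold change was 1.90 (standard error 1.02, adjusted p = 0.52) and, without library 32, 4.02 (adjusted p = 0.195). Against the 5 controls of both stages other than library 32, an alternative chosen after seeing the data, it was 4.004 (adjusted p = 0.0169).

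**Figure D3:**
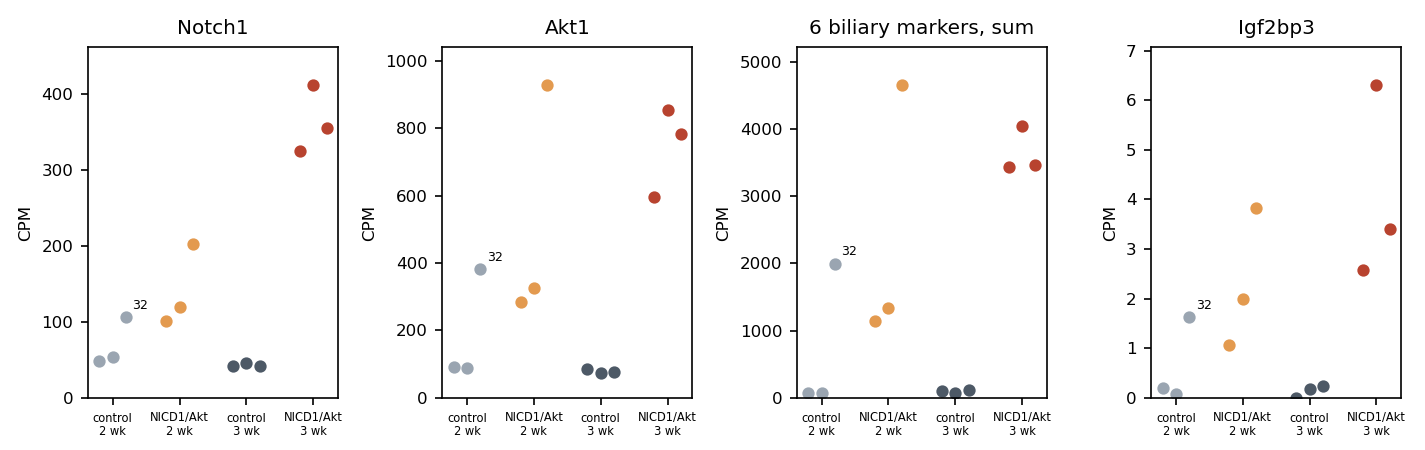
CPM (linear axes from 0) of Notch1, of Akt1, of the sum of 6 biliary markers and of Igf2bp3 in each of the 12 libraries by group. The library labelled control 32 lies at 106, 381, 1997 and 1.62 CPM, above the other 5 controls in all panels.

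Afp and Gpc3 overlapped between groups at 2 weeks. Afp had 2.39, 1.11 and 0.591 CPM in NICD1/Akt livers, and controls ranged from 1.37 to 1.54 CPM (log2 fold change -0.09 ± 0.54 SE, adjusted p = 0.943; -0.048 without library 32, adjusted p = 0.973). Gpc3 was at 1.26, 1.92 and 2.84 CPM against 3.19, 3.60 and 1.85 CPM (-0.50, standard error 0.43, adjusted p = 0.599), the lowest of these controls being the library labelled control 32. Without it the value was -0.73 (adjusted p = 0.407). Igf2bp2 was at 2.81 to 3.91 CPM against 1.66 to 3.24 CPM (0.28, standard error 0.35, adjusted p = 0.718), and its value was 0.44 without library 32 (adjusted p = 0.563). Dlk1 gave 1, 0 and 1 reads in NICD1/Akt livers at 2 weeks and 1, 1 and 0 in controls and was not tested.

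The effects at both stages were then compared in a fit of all 12 libraries, where 30.8% of 13829 genes passed. The effect at 3 weeks exceeded that at 2 weeks for Dlk1 (log2 difference 6.93, standard error 2.13, adjusted p = 0.0336) and Gpc3 (2.37, standard error 0.71, adjusted p = 0.0313). For Igf2bp3 the difference was 2.87 (standard error 1.43, adjusted p = 0.14), and 0.77 without the library labelled control 32. For Afp it was 1.31 (adjusted p = 0.2) and for Igf2bp2 -0.56 (adjusted p = 0.359), or 1.29 and -0.72 without that library (adjusted p = 0.271 and 0.307). Both calls depended on single libraries: leaving out library 10, 12, 30, 31, 33 or 34 ended both, and leaving out library 1, 2 or 11 ended that of Gpc3, with adjusted p-values from 0.0546 to 0.108 for Dlk1 and from 0.0522 to 0.0706 for Gpc3.

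Dlk1 and Gpc3 moved in different groups. Between NICD1/Akt livers at 3 and 2 weeks, Dlk1 went from 2 to 272 reads, a ratio of 98.3 with a 95% counting interval of 27.0 to 816. It was the 1 gene called of 5 (log2 difference 6.32, SE 0.81, adjusted p = 7.77e-04), where 28.4% of all genes were. Gpc3 did not differ beyond its spread there (0.66, standard error 0.47, adjusted p = 0.306), but fell by 1.70 on the log2 scale between controls at 2 and 3 weeks (standard error 0.53, adjusted p = 0.0277), from 2.88 ± 0.915 to 0.880 ± 0.194 CPM (SD, n = 3). It was again the 1 gene called of 5, against 37.8% of all genes. The 2-week controls without Ddx3y reads, 30 and 31, had the higher levels of Gpc3 (3.19 and 3.60 CPM), and without library 32 the fall was called as well (adjusted p = 0.0226). Without control 10, 11, 12, 30 or 31 it was not (adjusted p from 0.0547 to 0.0855), nor in limma-voom (adjusted p = 0.125); the part of sex in this X-linked gene was not tested.

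Marker sums of several liver cell types also differed between the groups at 3 weeks. At 3 weeks the 6 hepatocyte markers summed to 23557 to 36105 CPM in NICD1/Akt livers and to 98687 to 102345 CPM in controls, the 6 biliary markers to 3429 to 4042 CPM against 73.4 to 116 CPM, and the 6 fibroblast and stellate cell markers to 2391 to 3261 CPM against 188 to 278 CPM. In the last list, Col1a1 (log2 fold change 6.57), Col1a2 (5.16), Col3a1 (4.71) and Des (0.89) were higher. Its markers Dcn (-0.096, adjusted p = 0.396) and Lrat (-0.009, adjusted p = 0.976) were not called. The 4 mesothelial markers summed to 6.34 to 9.16 CPM against 3.08 to 3.70 CPM. Endothelial sums overlapped (187 to 221 against 186 to 228 CPM), macrophage sums were 97.6 to 118 against 112 to 140 CPM and erythroid sums 47.6 to 84.6 against 184 to 203 CPM. Single markers differed in direction within the first of these lists. On the log2 scale Vwf was higher (2.48), Stab2 lower (-0.52) and Pecam1, Kdr and Lyve1 were not called. Of the macrophage markers, Cx3cr1 (5.69), Cd68 (0.94) and Adgre1 (0.48) were higher and Clec4f was lower (-1.09). Markers of skeletal muscle summed to at most 1.30 CPM at 3 weeks, with Ckm and Myh4 at 0 in both groups. Of the exocrine pancreas markers, which summed to 14.7 to 22.8 against 55.3 to 67.2 CPM, Ctrb1 and Cpa1 were at 0 in both groups. Prss2 was at 0 in controls, so the control sum is Cela1 alone. Cela1 was lower in NICD1/Akt livers (log2 fold change -1.60, adjusted p = 4.58e-05). At 2 weeks the biliary markers summed to 1151 to 4660 CPM in NICD1/Akt livers and to 66.3 to 1997 CPM in controls. The highest of these controls was the library labelled control 32. Fibroblast and stellate cell markers summed to 887 to 3325 CPM against 431 to 1537 CPM. Dlk1 gave 1, 0 and 1 reads in NICD1/Akt livers of that stage, and Igf2bp3, Gpc3 and Afp were not called there. The part of these cell types in the levels of Dlk1, Igf2bp3, Gpc3 and Afp was not tested.

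The counts of the companion lists at 3 weeks stand against the 38.9% of all genes that were higher and the 33.1% that were lower, or 67.7% and 9.60% with library size alone. Some of the higher genes in these lists passed the filter on low counts only because of their levels in NICD1/Akt livers. In the IGF axis, 7 of 18 tested genes were higher (38.9%) and 10 lower (55.6%; median log2 fold change -0.75), or 8 and 6 with library size alone (-0.046). The share of higher genes was that of all genes. Igf1r, the receptor for IGF1 and IGF2, reached 89.9 ± 10.4 CPM in NICD1/Akt livers, with 7.20 ± 0.425 CPM in controls (SD, n = 3). Its log2 fold change was 3.75 (standard error 0.12, adjusted p = 2.13e-07). The binding protein genes Igfbp5 (3.49, standard error 0.32) and Igfbp7 (1.22, standard error 0.11) were higher, as was Stc2, an inhibitor of the proteases that cleave IGF binding proteins (6.28, standard error 0.54). Stc2 and Pappa, another of the 7 higher genes, passed the filter on low counts through NICD1/Akt livers alone. Of the lower ones, those with the smallest adjusted p were Igfbp2, another binding protein gene (-1.76, standard error 0.23), and Ide, which encodes the insulin-degrading enzyme (-0.67, standard error 0.09; 0.037 with library size alone). At 2 weeks 0 of 17 were called in edgeR and 1, Igf1r, had an unadjusted p under 0.05 (log2 fold change 1.57, adjusted p = 0.52; 2.23 without library 32, adjusted p = 0.195).

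The tested imprinted neighbours of Igf2 did not all move in 1 direction with TMM scaling. For Dlk1 only 1 neighbour could be tested, so movement as a block could not be judged there. In the Igf2 and Kcnq1 domains, 3 of 6 tested genes were higher and 1 lower (median 0.14), or 4 and 0 with library size alone. Kcnq1, a potassium channel gene, reached 77.5 ± 12.3 CPM, with 2.10 ± 0.219 CPM in controls (SD, n = 3). Its log2 fold change was 5.31 (standard error 0.17, adjusted p = 2.09e-07). Cdkn1c, which encodes the cell cycle inhibitor p57, was also higher (2.53, standard error 0.44). Cd81 rose little (0.28, standard error 0.10) and Slc22a18, a transporter gene of the same domain, fell by 1.01 on the log2 scale (-0.31, adjusted p = 0.076 with library size alone). Ins2, next to Igf2, had 0 reads in all 12 libraries.

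Begain, which lies beside Dlk1, was the only gene of its domain with enough reads to be tested apart from Dlk1. It gave 99 reads in NICD1/Akt livers at 3 weeks (0.560 to 2.05 CPM) and 0 in the controls, 15.5-fold above the floor of 3 reads over the group. It passed the filter on low counts, whose cutoff is in CPM by library size alone, through its NICD1/Akt libraries alone. At 2 weeks it gave 5 reads in NICD1/Akt livers and 12 in controls (0 to 0.772 CPM), 10 of them in library 32. Of 16 tested imprinted genes elsewhere, 7 were higher (43.8%) and 3 lower (18.8%; median 0.28), or 13 and 1 with library size alone. Those with the smallest adjusted p were Grb10, an adaptor that restrains insulin and IGF1 receptor signaling (2.32, standard error 0.11), Gab1 (2.42, standard error 0.14), Sgce (2.33, standard error 0.15) and Peg3 (1.48, standard error 0.11), each as a log2 fold change. Of the lower ones these were Asb4 (-1.54, standard error 0.31) and Ube3a, a ubiquitin ligase gene (-0.56, standard error 0.09; 0.14 with library size alone).

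Among genes of the LIN28 and let-7 axis, 9 of 18 tested were higher and 6 lower (33.3%) at 3 weeks (median 0.40), or 12 and 1 with library size alone. Drosha, the nuclease that cuts microRNA precursors out of their primary transcripts, rose by 1.10 on the log2 scale (standard error 0.13), and Tut4, which with LIN28 adds uridines to let-7 precursors, by 1.39 (standard error 0.18). The germ cell nuclear factor gene Nr6a1 (1.11, standard error 0.13) and the phosphatase gene Cdc25a (1.31, standard error 0.18) were also higher. Of the lower ones, Gng5, which encodes a G protein subunit, was at -0.66 (0.046 with library size alone) and E2f6, a repressor of the E2F family, at -0.97 (-0.26, adjusted p = 0.163 with library size alone). Of 12 genes for RNA-binding partners and m6A machinery of the IGF2BP proteins, 0 were higher and 5 lower (41.7%) in edgeR (median -0.14, 1 more gene with an unadjusted p under 0.05). The lower ones with the smallest adjusted p were Ythdf1, which fell by 0.82 on the log2 scale, Stau1 by 0.69, Ythdf3 by 0.59 and Elavl1 by 0.54 (adjusted p-values from 7.25e-05 to 5.12e-04). This direction depended on the scaling: with library size alone 8 of the 12 were higher and 0 lower (median 0.57), Stau1, Ythdf3 and Elavl1 turned to 0.014, 0.11 and 0.17, and Ythdf1 was at -0.11 (adjusted p = 0.318).

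Of the transcriptional regulators of Afp and H19, 9 of 21 were higher and 9 lower at 3 weeks, 42.9% in each direction (median -0.21), or 12 and 4 with library size alone (median 0.49). Tead2 (4.34, standard error 0.21) and Tead1 (1.31, standard error 0.12), whose products bind DNA for YAP, and the maintenance methyltransferase gene Dnmt1 (2.20, standard error 0.14) were higher on the log2 scale. The lower ones with the smallest adjusted p were the hepatocyte factor genes Hnf4a (-1.61, standard error 0.19) and Foxa3 (-1.95, standard error 0.25), both also called with library size alone. Of the albumin family and the other glypicans, 2 of 6 were higher (33.3%) and 4 lower (66.7%; median -0.93), or 2 and 2 with library size alone. The glypican genes Gpc1 (2.96, standard error 0.19) and Gpc6 (3.27, standard error 0.28) were higher, like Gpc3, and Gpc4 (-0.86, standard error 0.11) was lower, like the albumin relative Afm (-1.56, standard error 0.19); the call of Gpc4 was lost with library size alone (-0.15, adjusted p = 0.192).

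The Notch ligand genes, relatives of Dlk1, had 3 of 4 tested members higher and 0 lower (median 1.45), or 4 and 0 with library size alone. Dll4 (log2 fold change 1.31, standard error 0.26), Jag1 (1.59, standard error 0.41) and Jag2 (1.62, standard error 0.52) were higher, and Dll1 was at 0.21 (adjusted p = 0.454). Jag2 passed the filter on low counts only because of its levels in NICD1/Akt livers. All 13 tested genes of the hepatoblast and progenitor list were higher (median 4.65). Among them were Cd24a, at 218 ± 45.4 CPM against 2.16 ± 0.604 CPM (6.76, standard error 0.25, adjusted p = 2.97e-07), Sox4 (6.24, standard error 0.20), Prom1 (5.11, standard error 0.25) and Pkm (3.08, standard error 0.15). Of the 13, Prom1, Elf3, Igdcc4, Bex1 and Bex4 passed the filter on low counts only because of their levels in NICD1/Akt livers. At 2 weeks, 0 of these 13 were called in edgeR (2 with an unadjusted p under 0.05; median 1.94). Without library 32, which had 1997 CPM of the biliary markers, 0 were called and 11 had an unadjusted p under 0.05, as 18.3% of all genes did (median 3.30). At 3 weeks the list moved with the biliary markers, whose sum was 3429 to 4042 CPM with NICD1/Akt and 73.4 to 116 CPM without. It shares Epcam, Krt19 and Sox9 with them (median 3.04), and its other 10 tested genes were higher as well (median 5.10). Those 10 include Prom1, Elf3, Igdcc4, Bex1 and Bex4, and absence from the biliary marker list does not exclude expression in biliary cells. The part of biliary cells in these levels was not tested.

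**Figure D4:**
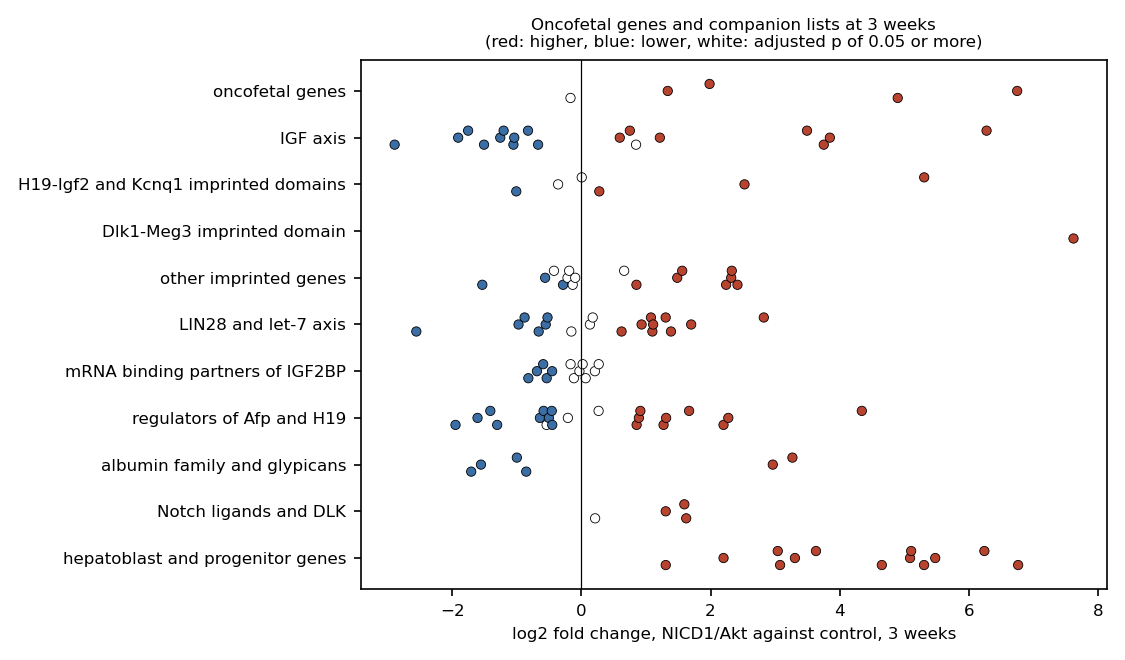
log2 fold change at 3 weeks (NICD1/Akt against control) of every tested gene of the oncofetal set and of 10 companion lists, 1 point a gene, colored by the call at an adjusted p under 0.05. All 13 points of the progenitor list lie on the higher side, whereas the IGF axis has 7 higher and 10 lower genes (TMM scaling, or 8 and 6 with library size alone). Some higher points, Prom1 and Bex1 among them, are genes that passed the filter on low counts only through NICD1/Akt livers.

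Across the 12 libraries, the genes whose log2 CPM followed the oncofetal genes most closely, among 12746 genes with a mean of at least 1 CPM, were Itgb8 (Pearson r = 0.98), Fchsd1 (0.98) and Fam163a (0.98) for Igf2bp3 and Fgfrl1 (0.88), Serpinb9 (0.87) and Adgrd1 (0.86) for Gpc3. For Afp they were Abca7 (0.84), Itgb3 (0.80) and Fbxo46 (0.80), and for Igf2bp2 Zcchc10 (0.82), Zc3h3 (0.77) and Ccnd3 (0.77). These values describe 12 libraries that share 4 groups, and Dlk1, with a mean of 0.905 CPM, was not included.

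**Figure D5:**
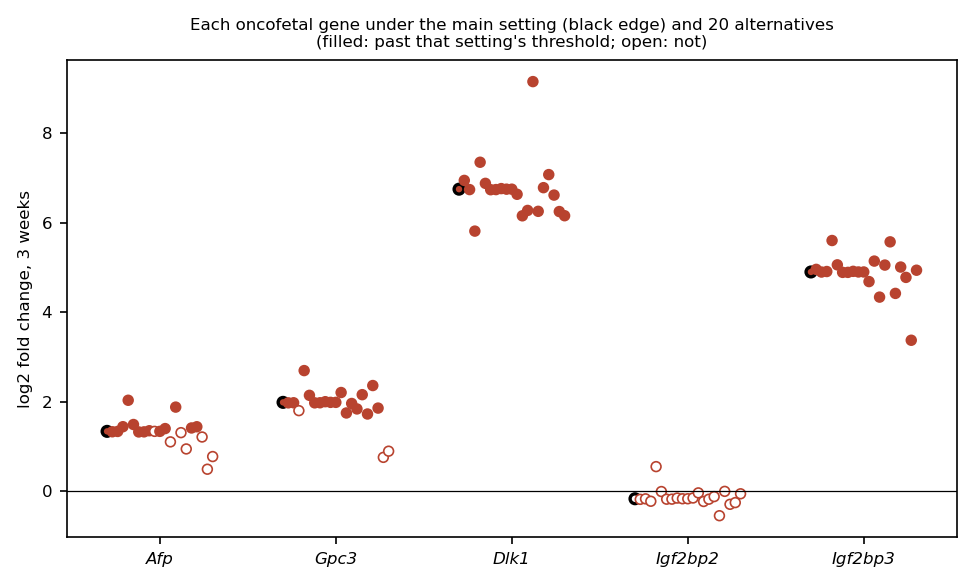
log2 fold change at 3 weeks of the 5 tested oncofetal genes under the main setting (black edge) and under each of 20 alternatives (red edge), filled where that setting's threshold was passed. Dlk1 (5.81 to 9.15) and Igf2bp3 (3.37 to 5.60) are filled throughout, whereas Afp has 7 and Gpc3 3 open points.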

How the data were processed

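Stranded poly(A) libraries of 12 C57BL/6J liver samples were sequenced. The authors deposited unnormalized whole-number read counts for every gene, with 1 table a stage. For the processing behind them, the methods name STAR, HTSeq and mm10. The submitters' processing notes give Subread 2.0.6, STAR 2.7 and GRCm39 instead, and which made the counts was not settled. For that reason coordinates are given for GRCm38 reference sequences only. Of 21807 IDs 21573 were matched to a GENCODE M21 symbol, and 98.2% are protein-coding. Groups and library numbers came from the labels. These do not say whether the libraries stem from separate mice, so p-values measure the spread between libraries.

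CPM, log2 fold changes and p-values were calculated from the counts in edgeR 4.0.16 under R 4.3.3 (TMM, filterByExpr, quasi-likelihood test, Benjamini-Hochberg over all genes tested, adjusted p under 0.05). Unless another tool is named, every adjusted p is from this test. The fits used the 6 libraries of a stage for 3 weeks (13408 genes) and 2 weeks (13041 genes), and all 12 for comparisons of stages (13829 genes). Folds against 0 reads set the observed reads against a floor of 3 reads over the group and do not cover the counting error of those reads. Ratios have exact 95% counting intervals, which cover counting error only. Alternatives used DESeq2 1.42.0, limma 3.58.1, other scalings, filters and thresholds, thinning, other controls and leaving out each library; the scalings of the companion lists, their 2-week values without library 32 and the 5 controls other than library 32 were added after seeing the data. The scripts were tested on simulated data.

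The oncofetal genes and companion lists were chosen with earlier results of these data known. Named were all 9 genes, up to 4 genes of each companion list (those of smallest adjusted p in the 3-week fit, of which 1 is not reported here), Notch1, Akt1 and Ddx3y, and the 3 genes with the most similar pattern; the 2 lower genes of smallest adjusted p in a list, the 2-week value of Igf1r and the reads of Ins2 and of muscle and pancreas markers are added to these. Gene lengths are exon unions of GENCODE M21.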

Additional observations from a re-analysis of the deposited data

Results flagged for a closer look

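For 2 genes the effect of NICD1/Akt differed between 3 and 2 weeks by a test of the difference itself, and in both cases the reads behind it are few. Dlk1 had a log2 difference of 6.93 (edgeR, adjusted p = 0.0336), with 272 reads in NICD1/Akt livers at 3 weeks against 5 reads in the other 9 libraries together. Gpc3 had a log2 difference of 2.37 (adjusted p = 0.0313), with an effect of 1.99 at 3 weeks and of -0.50 at 2 weeks. Both calls were kept without the library labelled control 32 (7.43, adjusted p = 0.0397, and 2.61, adjusted p = 0.0324). Both were lost without library 10, 12, 30, 31, 33 or 34. That of Gpc3 was also lost without library 1, 2 or 11 and in limma-voom.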

How the results depend on the processing

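At 3 weeks, 18 of 20 alternatives kept the count of 4 called genes within 1.5 times; it was 2 against all 6 controls and 2 against the 5 controls other than library 32, and 3 to 4 when 1 library was left out. Igf2bp2 reversed with library size only (0.55). At 2 weeks the count of 0 became 1 against the 5 controls other than library 32 and was 0 without any single library, while the small effects reversed: Afp to 0.032 with library size only, -0.770 to 0.277 when 1 library was left out (0.029 without NICD1/Akt library 34, 0.277 without 35), 0.38 against all 6 controls and 0.53 against the 5, and Gpc3 to 0.11 against all 6 controls and 0.11 against the 5. For the difference between stages the count of 2 was 1 with limma-voom, 0 at an adjusted p under 0.01 and 0 to 2 when 1 library was left out: both calls were lost without library 10, 12, 30, 31, 33 or 34, and that of Gpc3 also without library 1, 2 or 11. Igf2bp2 reversed there with library size only (0.087). For controls at 3 against 2 weeks the count of 1 was 0 with limma-voom, 0 at an adjusted p under 0.01 and 0 to 1 when 1 library was left out, the call of Gpc3 being lost without library 10, 11, 12, 30 or 31. The count of 1 for NICD1/Akt livers at 3 against 2 weeks was 1 in all 24 alternatives. The causes were not tested. Without a filter on low counts Igf2 was called as well at 3 weeks (5 genes). No paired analysis was possible because the groups share no replicate number. Each oncofetal gene had at most 550 reads over 12 libraries, which limits the precision of its values; thinned to the smallest library, the 4 calls at 3 weeks were kept.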
